A study of Mus musculus with 4 samples.

Results

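The CXC chemokine ligands examined here were the 10 genes Cxcl1, Cxcl2, Cxcl3, Cxcl5, Cxcl9, Cxcl10, Cxcl14, Cxcl16, Pf4 and Ppbp, found by symbol among the 55401 genes of the deposited expression table. Each symbol occurred once, and all 10 genes passed the filter on low counts that left 17260 genes for testing. The samples were bone marrow-derived macrophages of C57BL/6 mice aged 8 weeks, grown with the macrophage growth factor M-CSF and then co-cultured with the mouse colon carcinoma line MC38 over 24 h. The KO group (LysM-cre, Mettl3fl/fl; libraries KO 1 and KO 3) carried a floxed Mettl3 gene and a Cre recombinase driven from the lysozyme locus, which is active in myeloid cells. The WT group (Mettl3fl/fl; libraries WT 1 and WT 3) carried the floxed gene without Cre, so that both groups had the floxed allele and the tumour cells. Mettl3 encodes the catalytic subunit of the enzyme that writes N6-methyladenosine on mRNA. The series text calls the libraries biologic replicates but names no separate animals, so p-values measure the spread between these libraries, whatever its source.

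CXC chemokines are small secreted proteins named for a pair of cysteines set apart by a single residue, and they guide leukocytes through G protein-coupled receptors. Cxcl1, Cxcl2, Cxcl3 and Cxcl5 draw neutrophils through Cxcr2, and macrophages make Cxcl1, Cxcl2 and Cxcl3 rapidly when NF-kB is activated. Cxcl9 and Cxcl10 are induced by interferons and draw activated T cells and NK cells through Cxcr3. Pf4 (platelet factor 4, also called Cxcl4) and Ppbp (pro-platelet basic protein, also called Cxcl7) are stored in platelet granules, and Pf4 is also made by macrophages. Cxcl14 is made mainly by epithelial and stromal cells, and Cxcl16 is a membrane-bound ligand of Cxcr6 that macrophages carry and that also binds oxidised lipoprotein.

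Of the 10 ligands, 8 are on chromosome 5, in 2 clusters (coordinates of the deposited table, whose start and end equal those of GENCODE M21 on GRCm38 for 9 of the 10 ligands). The first cluster runs from 90759360 to 90905938, a stretch of 146.6 kb, in the order Cxcl5, Ppbp, Pf4, Cxcl3, Cxcl1 and Cxcl2, all on the plus strand. The second, 1415 kb further on, holds Cxcl9 (92321347 to 92328079) and Cxcl10 (92346638 to 92348882) on the minus strand. Cxcl14 lies on chromosome 13 (56288643 to 56296551, minus strand) and Cxcl16 on chromosome 11 (70453983 to 70459984, minus strand). Of the genes that lie among the first cluster, Cxcl15, Gm24322, Gm43085 and Gm43086 were listed at 0 counts in all 4 libraries, and Gm22816 had 3 counts in KO 1.

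RefSeq promoter windows (GRCm38.p6; 250 bases before to 50 after the gene start) were found for 8 of the 10 ligands, the exceptions being Cxcl5 and Cxcl16. They were searched on both strands for a kB motif, the site type of NF-kB (GGGA, 2 bases of any kind, T, 1 base of any kind and CC, present in 4.01% of 32851 promoters), for the interferon-stimulated response element ISRE (GAAA, 2 bases of any kind and GAAA, 3.44%) and for the gamma-activated site GAS (TTCNNNGAA, 8.3%). The windows of Cxcl1, Cxcl2, Cxcl3 and Cxcl10 are shown because these genes hold the kB and ISRE matches that set the neutrophil attractants beside Cxcl10. Capitals mark matches to the kB motif and, as the first capitals in Cxcl10, to the ISRE. The windows are chr5:90890995-90891294 for Cxcl1, chr5:90903649-90903948 for Cxcl2 and chr5:90785851-90786150 for Cxcl3, on the plus strand, and chr5:92348840-92349139 for Cxcl10, on the minus strand, each written 5′ to 3′ along its gene.
Cxcl1: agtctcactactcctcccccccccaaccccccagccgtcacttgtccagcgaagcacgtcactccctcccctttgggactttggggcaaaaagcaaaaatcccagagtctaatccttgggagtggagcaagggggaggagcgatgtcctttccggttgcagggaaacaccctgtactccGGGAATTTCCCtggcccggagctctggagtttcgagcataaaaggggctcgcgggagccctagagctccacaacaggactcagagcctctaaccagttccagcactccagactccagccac
Cxcl2: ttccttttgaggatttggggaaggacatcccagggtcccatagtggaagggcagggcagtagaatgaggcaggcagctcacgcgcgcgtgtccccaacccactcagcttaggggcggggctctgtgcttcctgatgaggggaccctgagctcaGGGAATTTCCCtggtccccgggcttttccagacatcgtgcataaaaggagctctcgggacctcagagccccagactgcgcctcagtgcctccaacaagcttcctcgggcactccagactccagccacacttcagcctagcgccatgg
Cxcl3: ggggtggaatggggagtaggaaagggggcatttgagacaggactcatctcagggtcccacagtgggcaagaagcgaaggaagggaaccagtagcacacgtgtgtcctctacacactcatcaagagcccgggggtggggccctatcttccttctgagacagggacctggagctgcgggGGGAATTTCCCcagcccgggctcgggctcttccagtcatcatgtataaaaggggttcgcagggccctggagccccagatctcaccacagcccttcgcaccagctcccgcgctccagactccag
Cxcl10: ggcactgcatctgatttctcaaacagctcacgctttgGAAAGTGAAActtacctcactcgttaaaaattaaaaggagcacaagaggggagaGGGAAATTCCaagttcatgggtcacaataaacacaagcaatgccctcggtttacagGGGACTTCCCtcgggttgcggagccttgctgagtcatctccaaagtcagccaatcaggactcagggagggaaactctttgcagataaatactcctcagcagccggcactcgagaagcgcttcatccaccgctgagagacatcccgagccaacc
Cxcl1, Cxcl2 and Cxcl3 held the same letters, GGGAATTTCCC, beginning 71, 97 and 73 bases before the gene start, in which matches on the 2 strands overlap. Cxcl10 held an ISRE match 213 bases before its start and kB matches 159 and 103 bases before it. None of the 3 motifs matched in the windows of Cxcl9, Pf4 and Ppbp, and Cxcl14 held an ISRE match and a GAS match. These are matches of letters, and binding was not measured.

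**Figure D1:**
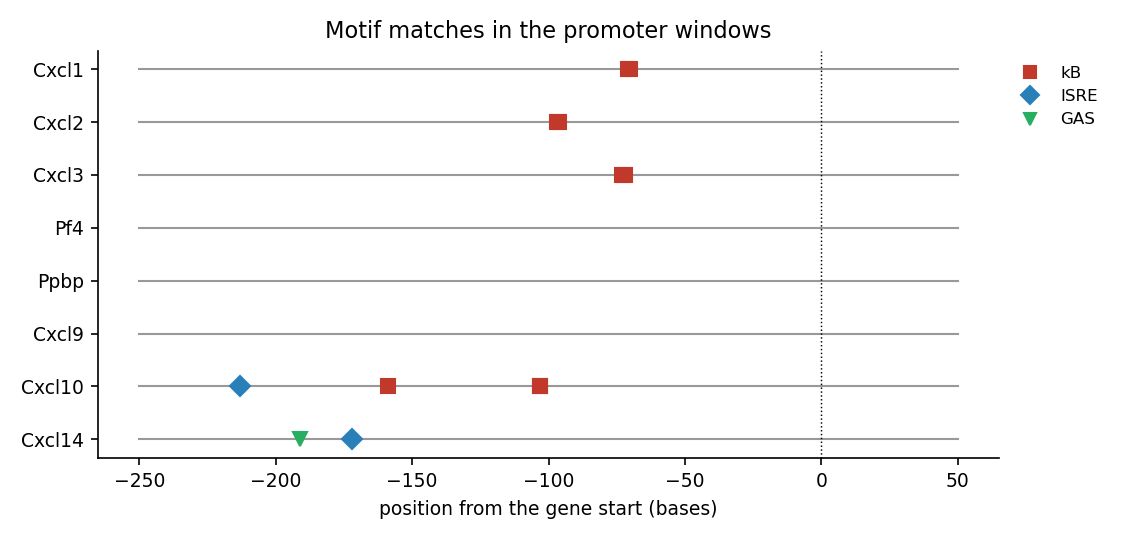
Matches to the kB, ISRE and GAS motifs (symbols) in the promoter windows of 8 CXC ligands (lines), by position from the gene start in bases; each symbol stands at the first base of a match. Cxcl1, Cxcl2 and Cxcl3 have their kB match between 97 and 70 bases before the start, and Cxcl10 has 1 ISRE match and 2 kB matches.

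Total counts were 62563556 and 79209870 in KO 1 and KO 3, and 55100415 and 61075754 in WT 1 and WT 3. The macrophage genes Lyz2 and Adgre1 were abundant in every library, at 25451 and 25785 CPM for Lyz2 in KO 1 and KO 3, and 22069 and 40813 CPM in WT 1 and WT 3 (CPM are counts scaled to a common library size, with TMM factors). Mettl3 stood at 13.9 and 19.6 CPM in KO 1 and KO 3, and at 18.3 and 23.2 CPM in WT 1 and WT 3. The groups overlapped, and the log2 difference was -0.40 in number 1 and -0.25 in number 3; since the count covers the whole gene and not the deleted exons alone, it does not check the labels. The library numbers coincided with sex-linked genes: Ddx3y, on the Y chromosome, reached 89.1 CPM in KO 1 and 72.1 CPM in WT 1, but 0.139 CPM in KO 3 and 0.307 CPM in WT 3. Xist, on the X chromosome, went the other way, at 0.624 and 0.589 CPM in KO 1 and WT 1. In KO 3 and WT 3 it reached 1161.5 and 1350.8 CPM. A difference between the numbers thus cannot be told apart from a difference between sexes. Pooled differences of the ligands and medians of the lists are therefore set beside those within number 1 and within number 3.

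Across the ligands, Pf4 made up most of the message per length in every library. Its level was 444.4 and 447.8 FPKM in KO 1 and KO 3, and 693.3 and 827.7 FPKM in WT 1 and WT 3 (FPKM are the authors' values, scaled by gene length and depth). That was 70.5% and 67.4% of the summed FPKM of the 10 ligands in the KO libraries, and 71.4% and 76.2% in the WT libraries. By FPKM, Pf4 stood at rank 69 and 64 of all genes in KO 1 and KO 3, and at rank 51 and 34 in WT 1 and WT 3. Cxcl16 came next in all 4 libraries, at 69.4 and 132.0 FPKM in KO 1 and KO 3 and at 85.6 and 130.1 FPKM in WT 1 and WT 3. Pf4 exceeded Cxcl16 6.40-fold and 3.39-fold in KO 1 and KO 3, and 8.10-fold and 6.36-fold in WT 1 and WT 3.

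The middle of the order was less settled. In KO libraries, Cxcl2 averaged 29.5 ± 9.6 FPKM, Cxcl1 23.1 ± 7.9, Cxcl3 16.5 ± 10.2, Cxcl14 13.8 ± 14.3 and Ppbp 10.5 ± 10.7 (SD, n = 2). In WT libraries, Cxcl2 averaged 44.2 ± 21.9 FPKM, Cxcl1 38.2 ± 24.7, Cxcl14 29.5 ± 24.1, Cxcl3 23.6 ± 15.6 and Ppbp 17.9 ± 8.8 (SD, n = 2). Within either group, neighbours among these 5 did not differ beyond their spread, although Cxcl2 exceeded Cxcl1, and Cxcl1 exceeded Cxcl3, in every library. Cxcl14 stood at rank 7 of the 10 in both libraries numbered 1 and at rank 3 in both libraries numbered 3. Ppbp stood at rank 6 in KO 1 and WT 1, at rank 7 in WT 3, and at rank 9 in KO 3, below Cxcl5 and Cxcl10. Cxcl5 and Cxcl10 were near the bottom and overlapped in the KO libraries, with Cxcl5 at 2.97 ± 0.29 FPKM and Cxcl10 at 3.43 ± 0.87 FPKM (SD, n = 2). In the WT libraries they did not overlap, with Cxcl5 at 5.98 ± 1.96 FPKM and Cxcl10 at 1.13 ± 0.21 FPKM (SD, n = 2). Cxcl9 was lowest in every library, at 0.231 and 0.834 FPKM in KO 1 and KO 3, and 0.0818 and 0.141 FPKM in WT 1 and WT 3.

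**Figure D2:**
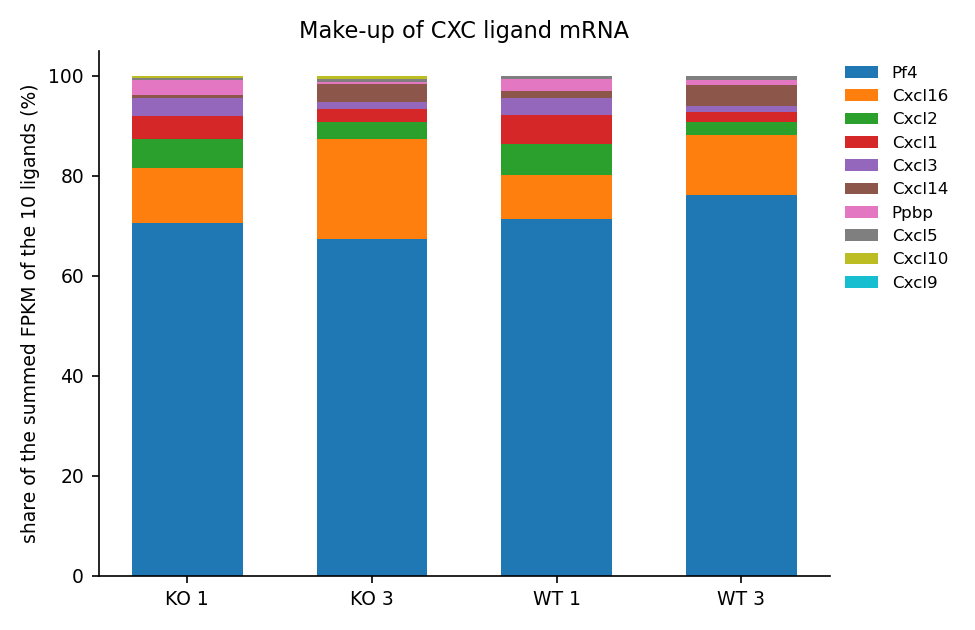
Share of each ligand in the summed FPKM of the 10 CXC ligands (vertical axis, percent) in each library (bars). Pf4 takes 67.4% to 76.2% and Cxcl16 takes 8.81% to 19.9% of the sum; Cxcl10 takes 0.447% and 0.610% in KO 1 and KO 3, and 0.131% and 0.0907% in WT 1 and WT 3.

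The comparison of KO with WT sets macrophages exposed to tumour cells, with Cre and the floxed Mettl3 gene, against those with the floxed gene alone. An effect of Cre or of its insertion at the lysozyme locus thus cannot be told apart from loss of Mettl3. Cxcl9 and Cxcl10 stood higher in both KO libraries than in both WT libraries, and Pf4 and Cxcl5 stood lower in both. For Cxcl1, Cxcl2, Cxcl3, Ppbp and Cxcl14 the groups overlapped, although each was lower in KO within number 1 and within number 3. Cxcl16 differed in opposite directions within the 2 numbers. All fold changes rest on 2 libraries per group. The quasi-likelihood test of edgeR called none of the 10, nor any other gene (0 of 17260, or 0%; 391 genes, 2.27%, had an unadjusted p under 0.05). DESeq2, the other count model tried, called 74 of 17776 genes, 0.416%, among them Cxcl10 and no other ligand (2.42% of 25066 genes had an unadjusted p under 0.05). Of the 74, 42 were higher in KO, or 0.236% of the genes.

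Counts of direction can be set against all tested genes. Of the 10 ligands, 7 were lower in KO within both numbers, which held for 27.1% of all genes. Another 2 were higher within both, which held for 25.6%, and 1 had opposite signs, which held for 47.3%. Groups did not overlap for 2 ligands above WT (13.1% of all genes) and for 2 below (13.4%). The median log2 fold change of the 10 was -0.66 (-0.61 within number 1 and -0.36 within number 3), against -0.00132 over all tested genes. The members were chosen with earlier results known, so these counts are a description.

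**Figure D3:**
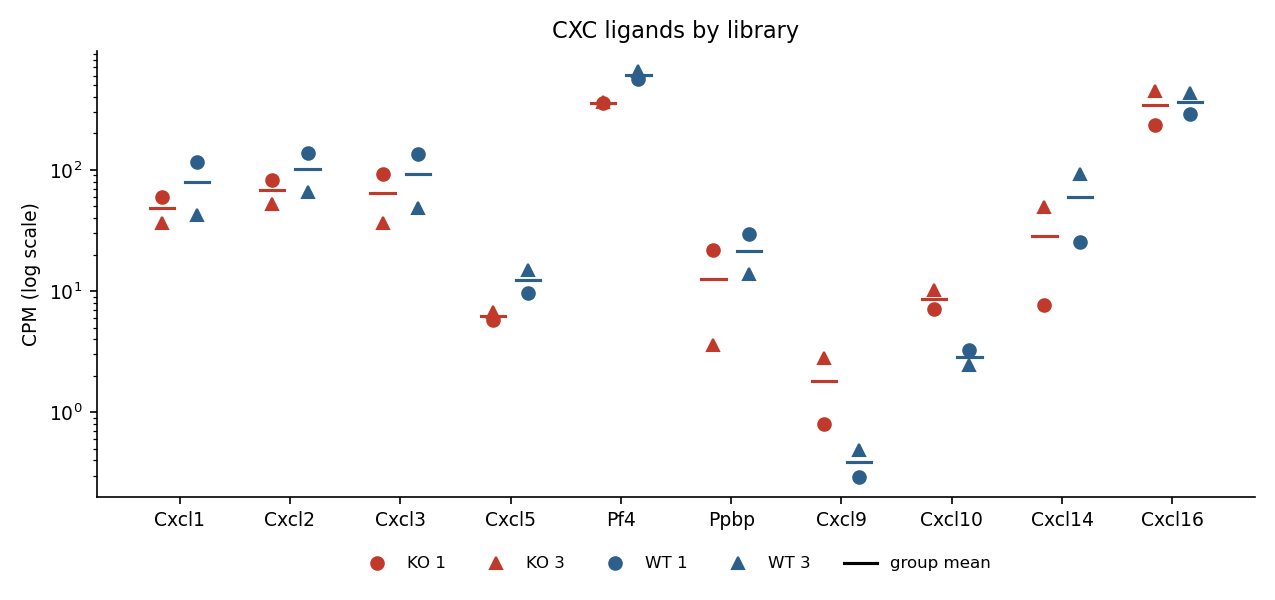
CPM (vertical log axis) of each CXC ligand in each library (circles for number 1, triangles for number 3), with KO in red left of WT in blue and bars at the group means. Both KO points lie above both WT points for Cxcl9 and Cxcl10 and below them for Pf4 and Cxcl5. For Cxcl1, Cxcl2, Cxcl3 and Ppbp the circles lie above the triangles in both groups. They lie below them in both groups for Cxcl5, Cxcl9, Cxcl14, Cxcl16 and Pf4, by little for Pf4 in KO.

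The neutrophil attractants were lower in KO macrophages within each library number, by more in number 1 for Cxcl1, Cxcl2 and Cxcl3. Cxcl1 stood at 59.8 and 36.8 CPM in KO 1 and KO 3, and at 117.0 and 42.6 CPM in WT 1 and WT 3. WT 1 was far above the other 3 libraries, and KO 1 lay above WT 3, so the groups overlapped. The log2 fold change, KO over WT, came to -0.73 ± 0.55 (SE; unadjusted p = 0.248 and adjusted p = 1.00 by edgeR), and by number it was -0.97 (number 1) and -0.21 (number 3). Cxcl2 stood at 83.3 and 52.6 CPM in KO 1 and KO 3, and at 138.6 and 65.2 CPM in WT 1 and WT 3. It had the same order of libraries as Cxcl1 and a log2 fold change of -0.58 ± 0.44 (SE; adjusted p = 1.00 by edgeR), or -0.74 in number 1 and -0.31 in number 3. Cxcl3 stood at 92.1 and 36.3 CPM in KO 1 and KO 3, and at 135.8 and 48.0 CPM in WT 1 and WT 3. The log2 fold change was -0.52 ± 0.67 (SE; adjusted p = 1.00 by edgeR), and -0.56 and -0.40 by number.

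Cxcl1, Cxcl2 and Cxcl3 also differed between the library numbers, and for Cxcl3 by more in either genotype than between the genotypes in either number. Number 1 was above number 3 by 1.63-fold in KO and 2.75-fold in WT for Cxcl1. It was above by 1.58-fold in KO and 2.13-fold in WT for Cxcl2, and by 2.53-fold in KO and 2.83-fold in WT for Cxcl3. Without WT 1 the pooled log2 fold changes turned to 0.19 for Cxcl1, 0.066 for Cxcl2 and 0.42 for Cxcl3, and without KO 3 that of Cxcl3 was 0.00228; leaving out a library mixes number with genotype. Over all tested genes the median absolute log2 difference was 0.30 between the genotypes, averaged over the numbers, and 0.40 between the numbers, averaged over the genotypes. Reads could be shared between Cxcl2 and Cxcl3: 4.57% of the 75-base words of Cxcl2 transcripts, and 2.78% of those of Cxcl3, occur in the other gene (GENCODE M21). Cxcl1 shared none with any gene.

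Cxcl5, which epithelial and stromal cells also make, did not follow the other 3. It stood at 5.74 and 6.66 CPM in KO 1 and KO 3, and at 9.63 and 15.1 CPM in WT 1 and WT 3. Both KO libraries lay below both WT libraries, and the libraries numbered 3 were the higher ones in each genotype. Expressed as log2, KO stood below WT at -0.99 ± 0.33 (SE; unadjusted p = 0.0318 and adjusted p = 1.00 by edgeR, adjusted p = 0.707 by DESeq2), at -0.74 in number 1 and -1.17 in number 3. The pooled value ran from -1.27 to -0.63 when each library was left out.

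Genes of NF-kB feedback and NF-kB targets outside the family went in mixed directions. Of 19 such genes, 6 were lower in KO within both numbers (27.1% of all genes), 3 were higher within both (25.6%) and 10 had opposite signs (47.3%). Their median log2 fold change was 0.04, with -0.30 within number 1 and 0.25 within number 3; edgeR and DESeq2 called 0 of them. Il1b, which encodes interleukin-1 beta, stood at 1540 and 1239 CPM in KO 1 and KO 3, and at 2213 and 891.1 CPM in WT 1 and WT 3. Nfkbia, the inhibitor that NF-kB induces against itself, stood at 146.2 and 171.1 CPM in KO 1 and KO 3, and at 159.2 and 146.0 CPM in WT 1 and WT 3. Both KO libraries were below both WT libraries for 5 of the 19 (13.4% of all genes), Cd83, Nfkbie, Il6, Traf1 and Ptgs2, and above them for 2 (13.1%), Ccl4 and Icam1; these 7 were named after their values were seen.

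The platelet chemokines were lower in KO macrophages within both numbers. Pf4, which binds heparin and limits angiogenesis, stood at 356.0 and 361.7 CPM in KO 1 and KO 3, and at 561.1 and 654.2 CPM in WT 1 and WT 3. The KO libraries were nearly equal and lay well below both WT libraries. WT exceeded KO 1.69-fold (log2 fold change -0.76 ± 0.17 SE; unadjusted p = 0.00861 and adjusted p = 1.00 by edgeR, adjusted p = 0.193 by DESeq2). By number the log2 difference was -0.66 (number 1) and -0.85 (number 3), and the pooled value ran from -0.86 to -0.64 when each library was left out. Ppbp, a precursor of neutrophil-attracting peptides, stood at 21.7 and 3.56 CPM in KO 1 and KO 3, and at 29.3 and 13.9 CPM in WT 1 and WT 3. KO 3 was the lowest library and WT 1 the highest, and KO 1 lay above WT 3. The log2 fold change was -0.78 ± 0.91 (SE; adjusted p = 1.00 by edgeR), or -0.43 in number 1 and -1.95 in number 3, and without KO 3 it was 0.00477. Pf4 and Ppbp, neighbours on chromosome 5, thus differed in their pattern over the library numbers: number 3 was 1.02-fold of number 1 in KO and 1.17-fold in WT for Pf4, and 0.166-fold and 0.475-fold for Ppbp.

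Other markers of megakaryocytes and platelets were scarce. Of the 11 listed, 8 could be tested, 3 of them below 0 and 5 above, and their median log2 fold change was 0.14, with -0.097 within number 1 and 0.15 within number 3. The summed level of the 11 was 11.3 and 26.8 CPM in KO 1 and KO 3, and 10.3 and 24.8 CPM in WT 1 and WT 3. The most abundant was Itgb3, an integrin chain that other cells also make, at 4.30 and 20.4 CPM in KO 1 and KO 3, and 3.30 and 19.5 CPM in WT 1 and WT 3. Treml1, a protein of platelet granules, stood at 2.35 and 2.26 CPM in KO 1 and KO 3, and at 2.32 and 1.58 CPM in WT 1 and WT 3. Of the 8 tested, 3 were higher in KO within both numbers (25.6% of all genes) and 2 lower within both (27.1%). The 2 lower ones, Itga2b and Gp5, had both KO libraries below both WT libraries (13.4%), and Gp6 had them above (13.1%). Itga2b stood at 0.368 and 0.455 CPM in KO 1 and KO 3, and at 0.644 and 1.58 CPM in WT 1 and WT 3. Gp5 had 0 and 8 counts in KO 1 and KO 3, and 12 and 12 in WT 1 and WT 3, none above the floor of 12 counts used here. Gp6 did not exceed 0.752 CPM and had 7 and 8 counts in WT 1 and WT 3. Of 5 tested erythroid markers (6 listed), 4 were lower in KO within both numbers (27.1% of all genes). The same 4 had both KO libraries below both WT libraries (13.4%). The summed level of the 6 was 2.62 and 0.341 CPM in KO 1 and KO 3, and 8.30 and 5.31 CPM in WT 1 and WT 3. DESeq2, which called 0.416% of all genes, called Hbb-bt, a beta globin. Hbb-bt was at 0 in both KO libraries, and at 1.40 and 0.662 CPM in WT 1 and WT 3. The part of such cells in the Pf4 and Ppbp differences was not tested, and fewer cells of a type cannot be told apart from less RNA per cell in bulk samples.

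Cxcl9 and Cxcl10 were the ligands higher in KO macrophages, from low levels. Cxcl10 stood at 7.07 and 10.2 CPM in KO 1 and KO 3, and at 3.26 and 2.47 CPM in WT 1 and WT 3. Both KO libraries lay above both WT libraries, with KO 3 the highest and WT 3 the lowest. KO exceeded WT 3.02-fold (log2 fold change 1.60 ± 0.36 SE; unadjusted p = 0.00838 and adjusted p = 1.00 by edgeR, adjusted p = 0.0392 by DESeq2, and 0.0356 to 1.00 over all alternatives). By number the log2 difference was 1.11 (number 1) and 2.04 (number 3), and the pooled value ran from 1.303 to 1.86 when each library was left out. Cxcl9 had 50 and 224 counts in KO 1 and KO 3, and 16 and 30 counts in WT 1 and WT 3, or 0.800 and 2.83 CPM against 0.295 and 0.484 CPM. The KO libraries again lay above the WT libraries, but KO 3 stood far above the rest. On the log2 scale KO exceeded WT by 2.21 ± 0.80 (SE; unadjusted p = 0.0442 and adjusted p = 1.00 by edgeR, adjusted p = 0.878 by DESeq2), by 1.35 in number 1 and 2.47 in number 3. Without KO 3 it was 1.03. Cxcl10 lies within Art3, a gene on the opposite strand that averaged 0.385 CPM in KO and 1.29 CPM in WT, and whether the counting used strand was not stated in the labels.

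Targets of type I interferon were higher in KO within both numbers, like Cxcl10. All 12 listed genes had that direction (25.6% of all genes), 11 of them with both KO libraries above both WT libraries (13.1%). DESeq2 called 6 (0.416% of all genes) and edgeR called 0. The median log2 fold change of the 12 was 1.38, with 0.98 within number 1 and 1.72 within number 3. The 4 with the smallest p were Ifit2, Ifit1, Ifit3 and Mx1. Ifit2, of a family of antiviral RNA-binding proteins, stood at 57.6 and 96.1 CPM in KO 1 and KO 3, and at 19.96 and 20.9 CPM in WT 1 and WT 3. Ifit1, of the same family, stood at 71.1 and 111.5 CPM in KO 1 and KO 3, and at 31.2 and 30.1 CPM in WT 1 and WT 3. Mx1, an antiviral GTPase, stood at 29.3 and 47.0 CPM in KO 1 and KO 3, and at 10.9 and 13.5 CPM in WT 1 and WT 3, and Ifit3 at 93.4 and 171.9 CPM in KO 1 and KO 3, and at 41.6 and 38.1 CPM in WT 1 and WT 3. Targets more typical of interferon-gamma, the main inducer of Cxcl9, had a median log2 fold change of 0.68 over 13 genes, with 0.33 within number 1 and 0.99 within number 3. Of these, 10 were higher in KO within both numbers (25.6% of all genes) and 2 lower within both (27.1%). Both KO libraries lay above both WT libraries for 8 (13.1%). They lay below them for 1 (13.4%), Socs1, at 0.208 and 1.17 CPM in KO 1 and KO 3, and 6.26 and 1.39 CPM in WT 1 and WT 3. Its log2 fold change was -2.46 ± 1.14 (SE), with -4.72 in number 1, where KO 1 had 13 counts, but -0.24 in number 3. Of the 13, edgeR and DESeq2 called 0. Irgm2, an interferon-inducible GTPase, stood at 98.9 and 140.1 CPM in KO 1 and KO 3, and at 78.6 and 70.2 CPM in WT 1 and WT 3. Cd274, which encodes PD-L1, stood at 322.4 and 412.9 CPM in KO 1 and KO 3, and at 336.3 and 320.8 CPM in WT 1 and WT 3. Cxcl11, the remaining ligand of Cxcr3 in this class, had a count only in WT 3, at 0.0646 CPM.

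**Figure D4:**
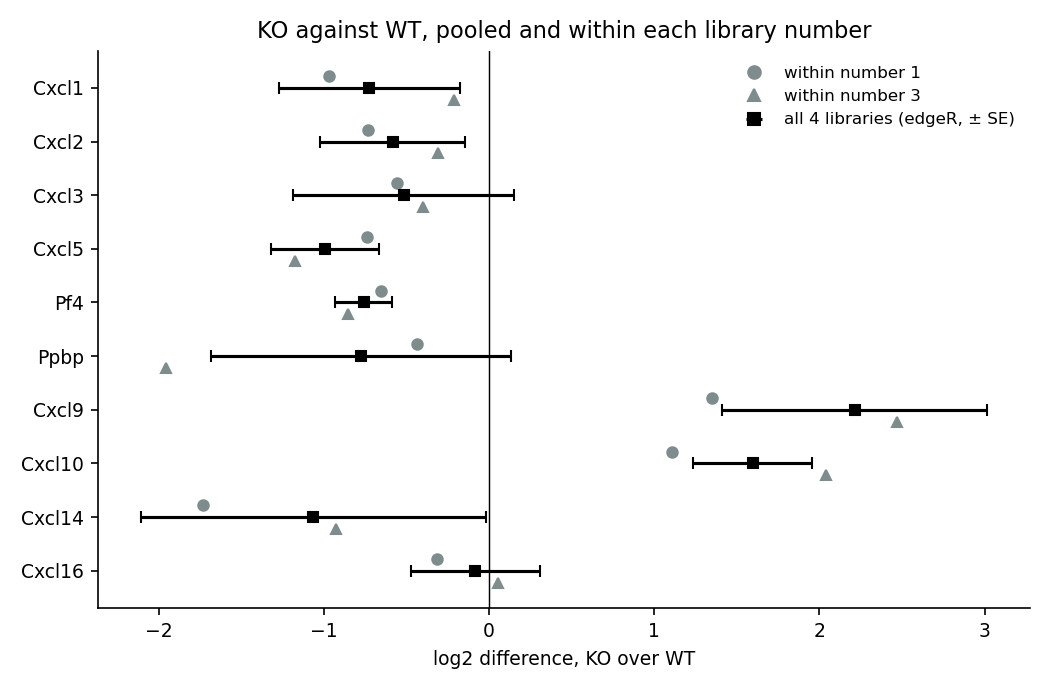
Log2 difference of KO over WT for each CXC ligand: squares with bars give the edgeR estimate over all 4 libraries ± SE, and grey circles and triangles give the difference within number 1 and within number 3. Cxcl9 and Cxcl10 lie right of 0 (2.21 and 1.60), Pf4 has the smallest SE (0.17), and Cxcl16 has grey points on both sides of 0.

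Cxcl14 was lower in KO within both numbers but varied more between numbers. It stood at 7.66 and 49.0 CPM in KO 1 and KO 3, and at 25.5 and 93.1 CPM in WT 1 and WT 3. The libraries numbered 3 were the highest in each genotype, by 6.37-fold in KO and 3.64-fold in WT, and KO 3 lay above WT 1. The log2 fold change, KO over WT, came to -1.07 ± 1.04 (SE; unadjusted p = 0.359 and adjusted p = 1.00 by edgeR), and by number it was -1.73 (number 1) and -0.93 (number 3). Without WT 3 it turned to 0.16, and it was -0.26 without KO 1, -1.70 without WT 1 and -2.95 without KO 3.

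Most markers of fibroblasts also stood lower in KO, without a call by edgeR or DESeq2. Of 10 tested, 9 were lower in KO within both numbers (27.1% of all genes). The median log2 fold change of the 10 was -0.50, with -0.24 within number 1 and -0.67 within number 3. Their summed level was 351.4 and 570.5 CPM in KO 1 and KO 3, and 444.2 and 891.3 CPM in WT 1 and WT 3. The groups overlapped for all 10, and their median difference was larger in number 3, whereas that of Cxcl14 was larger in number 1. From high to low, Cxcl14, Col1a1 and Col1a2 shared the library order WT 3, KO 3, WT 1 and KO 1. Others of the list, such as Col3a1, did not share it. Col1a1, a chain of collagen I, stood at 113.3 and 189.5 CPM in KO 1 and KO 3, and at 146.2 and 313.0 CPM in WT 1 and WT 3. Col1a2, its partner chain, stood at 90.1 and 207.3 CPM in KO 1 and KO 3, and at 123.2 and 333.3 CPM in WT 1 and WT 3. Thy1, a surface marker of fibroblasts, did not exceed 0.484 CPM in any library. It had 0 counts in KO 1 and 8 in WT 1, and Lum had 8 counts in KO 3. Thy1 and Lum are among the 9. Of 7 epithelial markers that tumour cells may carry, Epcam, Krt8, Krt18 and Cldn4 were listed at 0 counts in all libraries, and the 7 summed to 1.33 and 0.910 CPM in KO 1 and KO 3, and 0.460 and 0.953 CPM in WT 1 and WT 3. The part of stromal or tumour cells in the values of Cxcl14, Cxcl5 or any other ligand was not tested.

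Cxcl16 did not differ between the groups beyond the spread of the libraries. It stood at 233.0 and 446.9 CPM in KO 1 and KO 3, and at 290.2 and 430.7 CPM in WT 1 and WT 3. The libraries numbered 3 were the higher ones in both genotypes, and the groups overlapped. The log2 fold change, KO over WT, came to -0.08 ± 0.39 (SE; unadjusted p = 0.838 and adjusted p = 1.00 by edgeR), and by number it was -0.32 (number 1) and 0.05 (number 3). Without KO 1 the value was 0.33 and without WT 3 it was 0.23. Cxcl16 overlaps Zmynd15 on the opposite strand over 552 bases, a gene that averaged 53.0 CPM in KO and 51.0 CPM in WT. Of 4 tested genes that release or hold chemokines, 1 had a log2 fold change above 0 and 3 below, and their median was -0.15, with -0.43 within number 1 and 0.07 within number 3. Adam17, a protease that sheds membrane proteins, stood at 301.7 and 591.7 CPM in KO 1 and KO 3, and at 494.2 and 441.7 CPM in WT 1 and WT 3. Sdc4, a heparan sulphate carrier that can bind chemokines, stood at 166.8 and 121.1 CPM in KO 1 and KO 3, and at 212.7 and 123.4 CPM in WT 1 and WT 3.

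**Figure D5:**
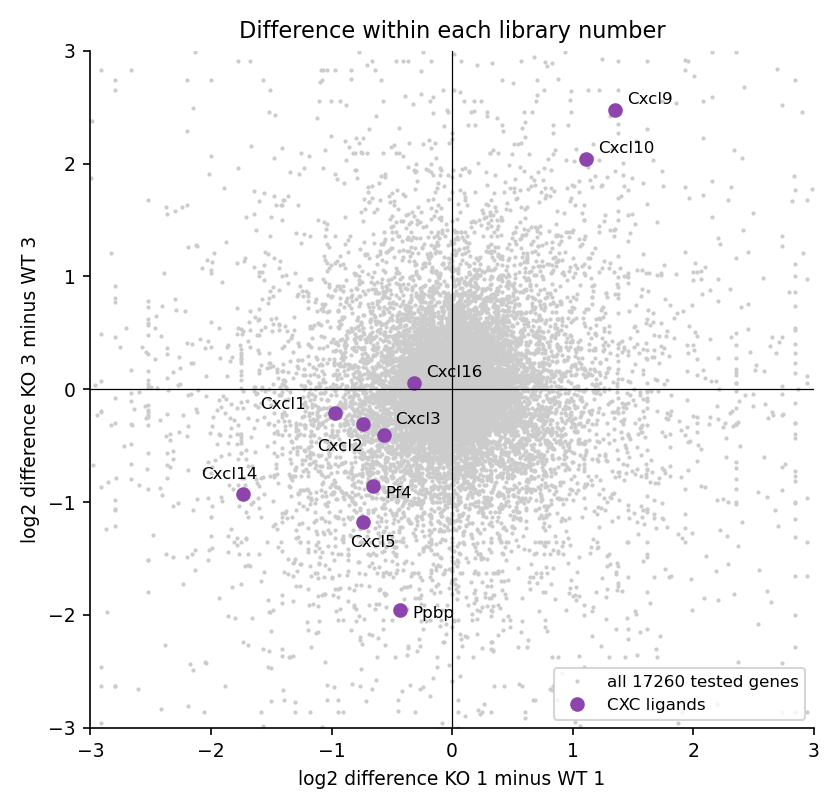
Log2 difference KO 1 minus WT 1 (horizontal axis) against KO 3 minus WT 3 (vertical axis) for 17260 tested genes (grey; genes beyond the axes are not drawn) and the 10 CXC ligands (purple, named). Cxcl9 and Cxcl10 lie at the upper right, 7 ligands at the lower left, and Cxcl16 near 0 at the upper left.

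Among the receptors of the family, the macrophage libraries held chiefly Cxcr4, the receptor of Cxcl12. Cxcr4 stood at 77.2 and 124.8 CPM in KO 1 and KO 3, and at 145.9 and 197.8 CPM in WT 1 and WT 3, so that both KO libraries lay below both WT libraries. That was a log2 fold change of -0.77 ± 0.31 (SE; unadjusted p = 0.0582 and adjusted p = 1.00 by edgeR), or -0.92 in number 1 and -0.66 in number 3. Cxcr1, Cxcr2 and the decoy receptor Ackr1 were listed at 0 counts in all libraries (the level that 12 counts give, taken as the floor, was 0.152 to 0.221 CPM). Cxcr3 stood at 8.45 and 4.73 CPM in KO 1 and KO 3, and at 4.49 and 6.31 CPM in WT 1 and WT 3. Ackr3, a scavenging receptor of Cxcl12, stood at 11.1 and 0.152 CPM in KO 1 and KO 3, and at 17.6 and 0.501 CPM in WT 1 and WT 3. Cxcr5 and Cxcr6 did not exceed 0.708 CPM. Of the ligands outside the 10, Cxcl12 stood at 4.65 and 13.2 CPM in KO 1 and KO 3, and at 5.63 and 18.1 CPM in WT 1 and WT 3, and Cxcl13 at 0.240 and 3.97 CPM in KO 1 and KO 3, and at 0.221 and 1.20 CPM in WT 1 and WT 3.

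The genes whose profile over the 4 libraries was nearest to 4 of the ligands were listed, by Euclidean distance between mean-centred log2 CPM among genes with a mean CPM of at least 10. Nearest to Cxcl10 of 8377 genes were the interferon targets Ifit1, Cmpk2 and Ifit3, at distances of 0.26, 0.32 and 0.32. Nearest to Pf4 of 8376 genes were Ecm1, Rnf144b and Adgrl2, at 0.10, 0.14 and 0.14; Adgrl2 stood at 128.4 and 131.2 CPM in KO 1 and KO 3, and at 205.5 and 211.8 CPM in WT 1 and WT 3. Nearest to Cxcl2 were Zfp467, Hmga1 and Men1, at 0.10, 0.10 and 0.15. Nearest to Cxcl16 were the cystine transporter gene Slc7a11, at 0.05, then Ahrr and Smyd5, each at 0.08. With 4 libraries many genes share a profile, so these are descriptions.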

How the data were processed

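Poly(A) RNA was sequenced as pairs of 150 bases, per the labels' protocols, and the submitters' processing notes name cutadapt 1.9, HISAT2 2.0.4, StringTie 1.3.4d, edgeR and DESeq2. Genome build, strand setting and the handling of reads with several matches: not given in the sources used here. In their table the authors deposited estimated counts, whole and not normalized, and FPKM values, per the file headers; 4 further columns matched no sample and were not used. Between 38.7% and 39.5% of counts from 1 to 24 were multiples of 4, so how many fragments a count stands for is unknown, and the floor, set at 12 counts, covers counting error only. Counts were tested over 17260 genes with edgeR 4.0.16 (R 4.3.3, TMM, filterByExpr, quasi-likelihood test, two-sided, Benjamini-Hochberg adjustment, threshold 0.05), and the code was checked on simulated data. The simulated data had large changes in well-counted genes, the same set spread for all genes and no effect of library number. They therefore do not show what the test can find in these libraries. SEs were computed as the absolute fold change over the square root of F, and within-number differences from log2 CPM with a prior count of 2. DESeq2 1.42.0, limma 3.58.1, other scalings, other filters, leaving out each library and a replicate block were alternatives.

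The members and lists were chosen with earlier results of these data known. Named were all members, Mettl3, receptors with a count in every library, the 3 genes of nearest profile for 4 ligands, and of each list up to 4 genes that DESeq2 called (smallest p) or else the 2 highest by FPKM, with further genes from the lists where a sentence needed them.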

Additional observations from a re-analysis of the deposited data

Results flagged for a closer look

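Cxcl16 was the ligand whose KO minus WT difference had opposite signs in the 2 library numbers, at -0.32 on the log2 scale in number 1 but 0.053 in number 3. Each value rests on 1 library per genotype and the difference between them was not tested; opposite signs held for 47.3% of all tested genes.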

How the results depend on the processing

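Over the 12 alternatives that kept all 4 libraries (DESeq2, RLE and total count scaling, 2 other filters, bias-adjusted edgeR, limma voom, limma on FPKM with 2 pseudocounts, counts divided by 4, and a replicate block in edgeR and in DESeq2), all 10 ligands kept the sign of their fold change. The count of genes called was 0 by edgeR and 74 by DESeq2, and 175 by DESeq2 with the replicate block, but 0 by edgeR with the replicate block and 0 under the others and with any library left out; the cause was not tested. DESeq2 with the block called Cxcl14 (adjusted p = 2.07e-04), Pf4 (adjusted p = 0.00974) and Cxcl10 (adjusted p = 0.0356), none of which edgeR with the block called. The labels state no shared source for equal numbers, although sex-linked genes coincided with the number. Deviations from the group means correlated at r = 0.419 over genes between KO 1 and WT 1, a hint from the data only. With each library left out in turn, the log2 fold change ran from -1.27 to 0.19 for Cxcl1, from -1.03 to 0.066 for Cxcl2, from -1.32 to 0.42 for Cxcl3 and from -2.58 to 0.00477 for Ppbp. It ran from -2.95 to 0.16 for Cxcl14 and from -0.63 to 0.33 for Cxcl16. Cxcl5, Pf4, Cxcl9 and Cxcl10 kept their sign throughout; Cxcl9 ran from 1.03 to 2.87, and was 0.44 with limma on log2(FPKM + 1), where the pseudocount exceeds its level.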

Other observations

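The balance between neutrophil attractants and interferon-driven ligands was computed after the values were seen. The summed FPKM of Cxcl1, Cxcl2, Cxcl3 and Cxcl5 was 29.98 and 10.8 times that of Cxcl9 and Cxcl10 in KO 1 and KO 3, and 113.8 and 61.6 times in WT 1 and WT 3. Both KO libraries lay below both WT libraries for this ratio. The summed attractants overlapped, at 240.9 and 132.4 CPM in KO 1 and KO 3, and 401.2 and 170.9 CPM in WT 1 and WT 3. Cxcl9 and Cxcl10 summed to 7.87 and 13.1 CPM in KO 1 and KO 3, and 3.55 and 2.95 CPM in WT 1 and WT 3, without overlap. Within a cluster, the ratio of Cxcl1 to Cxcl2 in FPKM stayed between 0.721 and 0.931 in all 4 libraries, at 0.792 and 0.770 in KO 1 and KO 3, and 0.931 and 0.721 in WT 1 and WT 3. The ratio of Pf4 to Ppbp, whose genes are neighbours, was 24.7 and 152.6 in KO 1 and KO 3, and 28.8 and 70.7 in WT 1 and WT 3.

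Of 10 neutrophil markers, 5 passed the filter on low counts. In KO, 2 of the 5 were higher within both numbers (25.6% of all genes), 2 lower within both (27.1%) and 1 was neither (47.3%). Of the 5, edgeR and DESeq2 called 0. Ly6g and Retnlg were listed at 0 counts throughout. Mmp8, a collagenase that macrophages can also make, stood at 258.8 and 80.9 CPM in KO 1 and KO 3, and at 317.4 and 124.2 CPM in WT 1 and WT 3. S100a8, a calcium-binding protein of myeloid cells, stood at 18.9 and 24.2 CPM in KO 1 and KO 3, and at 14.1 and 15.9 CPM in WT 1 and WT 3. Both KO libraries thus lay above both WT libraries, as they did for Camp (13.1% of all genes).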
